A study of Mus musculus with 7 samples.

Results

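The dual-specificity mitogen-activated protein kinase (MAPK) phosphatases described here are 10 Dusp genes, taken by their gene symbols from the 28666 genes of the expression table. They are Dusp1, Dusp2, Dusp3, Dusp4, Dusp5, Dusp6, Dusp10, Dusp14, Dusp16 and Dusp22. Their RNA was measured in bone marrow-derived dendritic cells (BMDCs) from female C57BL/6 mice of 6 to 8 weeks, grown for 7 days with GM-CSF and IL-4 and then co-cultured across a Transwell membrane with the mouse colon carcinoma line MC38. Per the study's text, the tumor cells of this co-culture received DON, a glutamine antagonist, and after 24 h the BMDCs of both groups were sorted by flow cytometry into immature cells (3 libraries) and mature cells (4 libraries). The legend of a schematic gives the dose of DON as 5 µM and also names DMSO, and the sample labels name no treatment. The surface markers of the sort are not stated for these libraries. The study's methods state in general that data came from independent biological experiments, and the labels do not say which culture or mouse each library came from, so the p-values below measure the spread between these samples.

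MAP kinases relay signals from growth factor, cytokine and pattern recognition receptors through 3 main branches, ERK, JNK and p38. Each is switched on when an upstream kinase phosphorylates a threonine and a tyrosine of its activation loop, and dual-specificity phosphatases remove both phosphates. The typical members carry a MAPK-binding domain. Among them, Dusp1, Dusp2, Dusp4 and Dusp5 are nuclear and inducible, Dusp6 is cytoplasmic and selective for ERK, and Dusp10 and Dusp16 prefer JNK and p38. The atypical members, Dusp3, Dusp14 and Dusp22, are small enzymes without that domain. Several of these genes are themselves induced by MAPK signaling, and in myeloid cells Dusp1 is known as a brake on cytokine production after Toll-like receptor stimulation.

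The promoters of 3 members with different patterns are shown, so that the elements upstream of an immediate early gene (Dusp1), of the member with the highest level in mature cells (Dusp5) and of the member with the largest fall (Dusp6) can be compared. Each stretch covers bases 250 to 51 before the annotated start, on the gene's own strand, from RefSeq on GRCm38.p6. The coordinates are chr17:26508523-26508722 (minus strand) for Dusp1, chr19:53528895-53529094 (plus strand) for Dusp5 and chr10:99262981-99263180 (plus strand) for Dusp6. In Dusp1, capitals mark a cyclic AMP response element (CRE), a further copy of its TGACG core and an E-box. In Dusp5 they mark 2 adjoining CArG boxes, the element read by serum response factor, and a TGACG core on the opposite strand. Dusp6 held no match to any motif searched.
Dusp1: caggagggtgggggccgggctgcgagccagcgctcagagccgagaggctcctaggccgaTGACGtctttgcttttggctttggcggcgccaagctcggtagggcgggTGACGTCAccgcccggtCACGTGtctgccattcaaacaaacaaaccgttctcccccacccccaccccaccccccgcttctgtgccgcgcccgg
Dusp5: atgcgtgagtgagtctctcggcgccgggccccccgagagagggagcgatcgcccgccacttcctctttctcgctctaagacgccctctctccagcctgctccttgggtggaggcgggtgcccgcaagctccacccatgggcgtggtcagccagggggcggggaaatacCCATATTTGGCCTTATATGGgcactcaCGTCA
Dusp6: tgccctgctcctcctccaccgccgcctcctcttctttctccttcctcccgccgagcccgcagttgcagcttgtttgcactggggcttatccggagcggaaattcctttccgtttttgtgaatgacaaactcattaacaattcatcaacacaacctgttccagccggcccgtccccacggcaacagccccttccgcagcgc

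Of the 10 members, 9 had a promoter in the RefSeq table, and Dusp4 had none. Both strands of each 300-base window, from 250 bases before to 50 bases after the start, were searched. The full CRE, TGACGTCA, was found in 1 of the 9 members, Dusp1, and in 1.79% of 32851 promoters. Its core TGACG, which lies within each full CRE on both strands, was found in Dusp1, Dusp2, Dusp5 and Dusp16, and in 20.81% of all promoters. The E-box CACGTG occurred in Dusp1 and Dusp2 and in 7.15% of all promoters. The CArG box was found in Dusp5 alone among the members and in 1.629% of all promoters, and this motif was added after the sequences had been seen. The NF-kB consensus was matched in Dusp22 alone among them, against 8.459% of all promoters. The GC box GGGCGG was present in 8 of the 9, with Dusp6 the exception, and in 35.66% of all promoters. Neither the AP-1 element TGANTCA (7.808% of all promoters) nor TATAAA (13.62%) matched in the members' windows. A match describes the letters of the window and does not show that a factor binds there.

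Mature and immature cells were compared with edgeR's quasi-likelihood test on the counts of 17461 genes that passed its filter on low counts, with p-values adjusted by the Benjamini-Hochberg method over all of them. A gene passed the criteria where it moved by 1 log2 unit or more in either direction with an adjusted p below 0.05, the thresholds of the study's methods. Levels are given as CPM, in which counts are divided by the TMM-adjusted size of their library, and as FPKM, which also divides by gene length, where genes are set beside each other. Library totals were 54846746 to 67973086 counts. Over all tested genes, 13.2% were higher and 9.95% lower in mature cells past the criteria. The mature cells carried maturation markers, with all 6 of Cd80, Cd86, Cd40, Ccr7, Fscn1 and Cd83 higher (summed CPM 405 to 418 in immature and 4376 to 5167 in mature libraries). Of 8 dendritic markers, Batf3, Flt3 and Zbtb46 were higher past the criteria and 0 lower. On that list 6 had an adjusted p under 0.05, and the median log2 fold change was 0.76. Itgax, which did not pass, stood at 874 to 1464 CPM across the libraries. All 6 macrophage markers fell (summed CPM 1544 to 1653 against 290.5 to 324; Adgre1, Cd68, Csf1r, Fcgr1, Mertk and Mrc1). All 9 heart muscle markers rose, with summed CPM of 5.08 to 6.29 in the immature libraries, 27.2 in mature replicate 1 and 589.9 to 713 in mature replicates 2 to 4. In bulk RNA, fewer cells of a type and less RNA per cell cannot be told apart, and the part of these other cell types in the members' values was not tested. Mature replicate 3 stood apart from the other mature libraries in all genes, with a median chi-square per gene of 17.7 to 25.6 against 4.26 to 5.26 among the other three.

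All 10 members passed the filter. Mature BMDCs had higher Dusp14, Dusp4, Dusp5 and Dusp16 RNA and lower Dusp6, Dusp3 and Dusp10 RNA than immature BMDCs, while Dusp1, Dusp2 and Dusp22 did not pass the criteria. The 4 rises are set against 13.2% of all tested genes higher in mature cells, the 3 falls against 9.95% lower, and the 7 together (70.0% of the members) against 23.1% of all genes past the criteria. The CPM ranges of the groups did not overlap for 7 members, the same 7 genes, against 52.1% of all tested genes. The median log2 fold change of the members was -0.031, beside 0.055 over all tested genes, so the group as a whole showed no common direction. Among the nuclear inducible members, 2 of 4 rose, and of the JNK- and p38-selective pair one rose and the other fell.

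**Figure D1:**
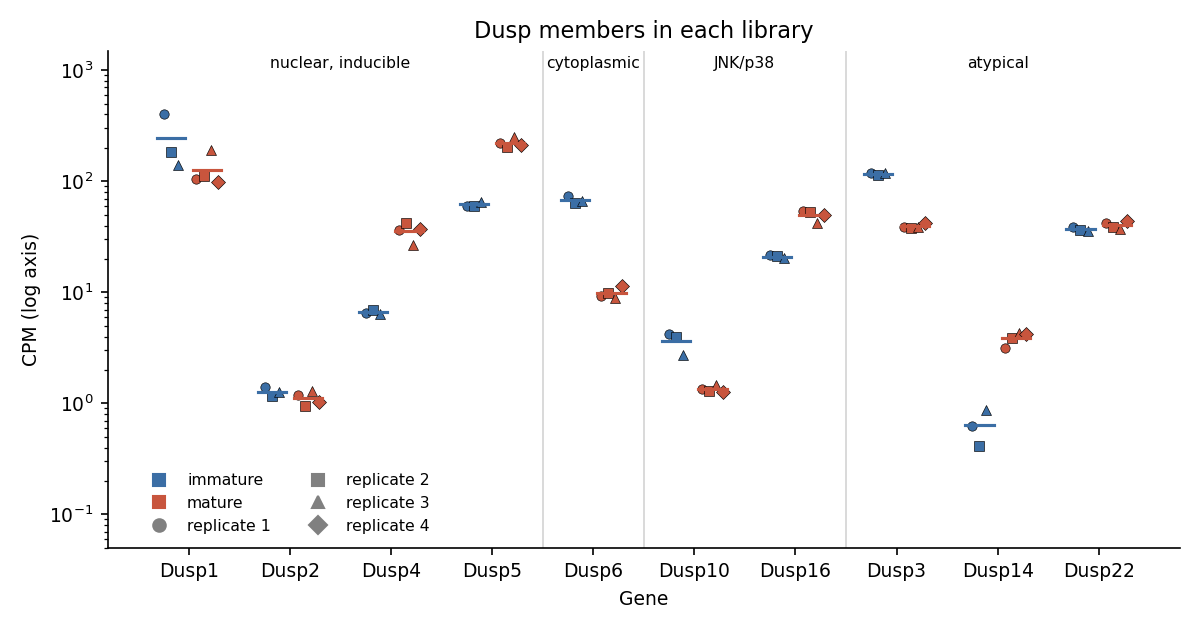
CPM (log axis) of the 10 Dusp members in each of 3 immature (blue) and 4 mature (red) libraries, with 1 point per library, marker shape giving the replicate number and bars giving group means. Dusp14, Dusp4, Dusp5 and Dusp16 lie higher in every mature library, Dusp6, Dusp3 and Dusp10 lower, and the groups overlap for Dusp1, Dusp2 and Dusp22.

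Dusp5 encodes a nuclear phosphatase that is specific for ERK. Dusp5 (ENSMUSG00000034765, chr19:53529109-53542431, plus strand) stood at 60.2, 60.6 and 65.2 CPM in immature replicates 1 to 3 and at 220.4, 205, 248 and 213 CPM in mature replicates 1 to 4. The mature libraries all lay above the immature ones, and the spread within each group was small beside the gap. The log2 fold change was 1.84 ± 0.093 (SE), 3.57-fold, with an adjusted p of 1.22e-06. In FPKM it went from 22.02 ± 0.50 (SD, n = 3) to 84.6 ± 3.36 (SD, n = 4). An antisense gene, AC137853.2, overlaps its first bases in the GENCODE M21 annotation, and the strand setting of the counting is not given in the sources used here.

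Dusp4, whose product acts in the nucleus on ERK and JNK, had 6.56, 6.87 and 6.40 CPM in immature libraries and 36.3, 41.7, 26.5 and 37.3 CPM in mature cells. Mature replicate 3 was the lowest of its group and still well above every immature library. The log2 fold change of Dusp4 (ENSMUSG00000031530, chr8:34807297-34819894, plus strand) was 2.42 ± 0.16 (SE), 5.37-fold, with an adjusted p of 5.51e-06.

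Dusp2, also called PAC-1 and first known as an immediate early gene of activated T cells, was low in both groups. It had 1.40, 1.17 and 1.27 CPM in immature cells and 1.20, 0.952, 1.30 and 1.04 CPM in mature cells, and the groups overlapped. These levels rest on 63 to 82 counts per library. Its log2 fold change was -0.19 ± 0.26 (SE; 95% interval -0.77 to 0.40) with an adjusted p of 0.591, so the interval leaves out a change of 1 log2 unit in either direction.

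Dusp1 (ENSMUSG00000024190, chr17:26505590-26562128, minus strand), an immediate early gene, varied most among replicates. The immature libraries held 405, 185 and 139.7 CPM and the mature ones 104, 112, 192 and 98.8 CPM. Immature replicate 1 was more than 2 times as high as either other immature library, and mature replicate 3 exceeded immature replicates 2 and 3, so the groups overlapped. The log2 fold change was -0.94 ± 0.37 (SE; 95% interval -1.79 to -0.098) with an unadjusted p of 0.0326 and an adjusted p of 0.0667, short of both criteria. Single libraries decided this result. Without immature replicate 1 the log2 fold change was -0.37 (adjusted p = 0.341), without immature replicate 3 it was -1.22 (adjusted p = 0.0318), and without mature replicate 3 it was -1.19 (adjusted p = 0.0115). The gene model of Dusp1 overlaps Ergic1 and the pseudogene Gm8225 on the opposite strand. On its own strand it overlaps the pseudogene AC122252.4 and the intronic gene AC122252.1.

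Dusp6 encodes the cytoplasmic ERK phosphatase. Dusp6 (ENSMUSG00000019960, chr10:99263231-99267489, plus strand) had 74.5, 63.6 and 66.7 CPM in immature cells and 9.34, 9.89, 8.87 and 11.3 CPM in mature cells. The groups lay far apart, and the fall was the largest of the 10 members, with a log2 fold change of -2.79 ± 0.11 (SE), 6.93-fold, and an adjusted p of 4.90e-07. In FPKM, Dusp6 went from 19.2 ± 1.65 (SD, n = 3) to 2.98 ± 0.395 (SD, n = 4). Dusp5 and Dusp6 thus stood at similar FPKM in immature cells, with Dusp5 to Dusp6 ratios of 1.02, 1.21 and 1.24, and at ratios of 30.0, 26.3, 35.5 and 23.9 in the mature libraries.

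The JNK- and p38-selective pair moved in opposite directions. Dusp16 (ENSMUSG00000030203, chr6:134715468-134792625, minus strand), which encodes a phosphatase that shuttles between cytoplasm and nucleus, had 21.6, 21.1 and 20.3 CPM in immature cells and 53.7, 52.7, 42.3 and 49.6 CPM in mature cells. Its log2 fold change was 1.24 ± 0.11 (SE; 95% interval 0.999 to 1.48), 2.36-fold, with an adjusted p of 2.19e-05. The groups did not overlap, and the interval reached down to the fold criterion. The antisense gene Gm36328 overlaps Dusp16 on the opposite strand.

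Dusp10 (ENSMUSG00000039384, chr1:184013302-184075636, plus strand), known for restraining JNK in innate and T cell responses, had 4.22, 3.94 and 2.71 CPM in immature cells and 1.33, 1.28, 1.48 and 1.26 CPM in mature cells. Immature replicate 3 was the lowest of its group and lay above every mature library. The gene 1700056E22Rik overlaps Dusp10 on the opposite strand. The log2 fold change was -1.44 ± 0.22 (SE; 95% interval -1.94 to -0.93), 2.70-fold, with an adjusted p of 0.00079. The FPKM ratio of Dusp16 to Dusp10 was 1.99, 2.104 and 2.92 in the immature libraries and 15.8, 16.2, 11.4 and 15.5 in the mature ones.

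Each of the atypical members had a different pattern. Dusp3 (ENSMUSG00000003518, chr11:101971143-101987013, minus strand), also called VHR and active on ERK and JNK, had 119.3, 113 and 119.9 CPM in immature cells and 39.0, 38.03, 38.7 and 42.0 CPM in mature cells. Its replicates were the most uniform of the members that fell, and the log2 fold change was -1.57 ± 0.073 (SE), 2.98-fold, with an adjusted p of 8.26e-07. The antisense gene Gm20659 and the gene Cfap97d1 overlap it on the opposite strand.

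Dusp14 (ENSMUSG00000018648, chr11:84048041-84068801, minus strand), a small phosphatase that restrains T cell receptor signaling through TAB1, had 0.630, 0.413 and 0.868 CPM in the immature libraries. It had 3.14, 3.85, 4.29 and 4.21 CPM in mature cells, so the lowest mature library exceeded the highest immature one. With 23 to 56 counts in the immature and 207 to 263 in the mature libraries, the log2 fold change of 2.59 ± 0.30 (SE), 6.04-fold (adjusted p = 0.000133), was the least precise of those past the criteria. On the log2(FPKM + 1) scale of limma, which compresses low levels, it was 1.17.

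Dusp22 (ENSMUSG00000069255, chr13:30659999-30711231, plus strand), also called JKAP, had 38.8, 36.8 and 35.7 CPM in immature cells and 42.0, 38.7, 37.5 and 43.7 CPM in mature cells. The groups overlapped, and the log2 fold change was 0.13 ± 0.088 (SE; 95% interval -0.076 to 0.33) with an adjusted p of 0.280. The interval leaves out a change of the size of the criterion.

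**Figure D2:**
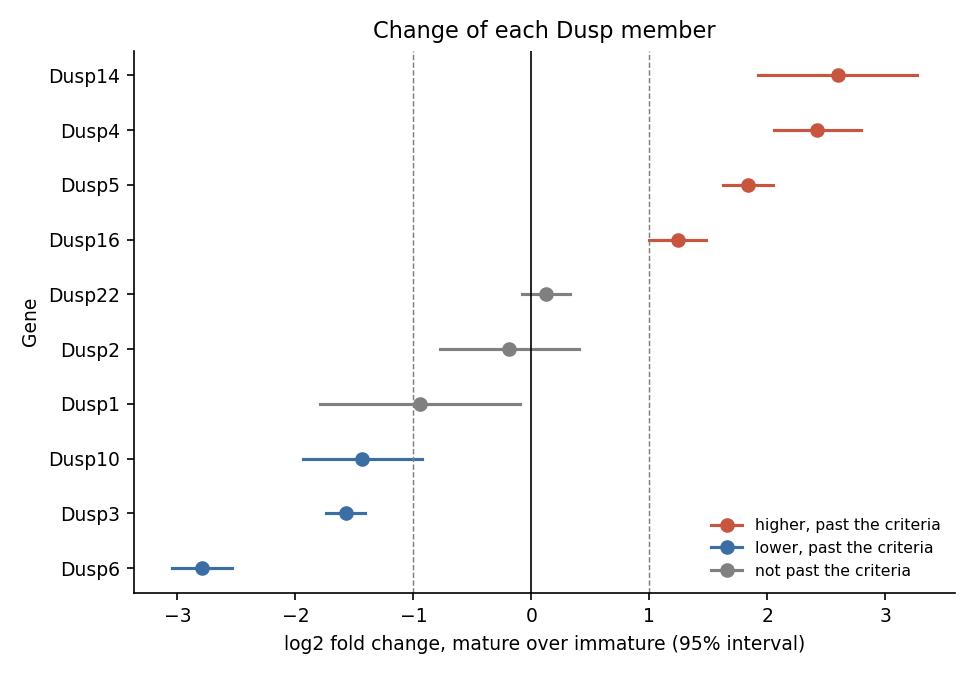
Log2 fold change of mature over immature BMDCs for the 10 Dusp members, from edgeR on 7 libraries, with 95% intervals as bars and the fold criterion of 1 in either direction as dashed lines. Dusp14 at 2.59 and Dusp6 at -2.79 are the extremes, and the interval of Dusp1 runs from -1.79 to -0.098.

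Set in order by FPKM, Dusp1 led the members in immature cells at 64.9 ± 38.4 (SD, n = 3), followed by Dusp3 at 22.04 and Dusp5 at 22.02, whose ranges overlapped, and by Dusp6 at 19.2. Dusp22 (6.38), Dusp16 (2.36), Dusp4 (2.12), Dusp10 (1.05), Dusp2 (0.557) and Dusp14 (0.280) came next, and of these neighbours the ranges of Dusp16 and Dusp4 overlapped. In mature cells Dusp5 led at 84.6, ahead of Dusp1 at 35.8 ± 10.4 (SD, n = 4). Dusp4 (12.3), Dusp3 (7.98), Dusp22 (7.51) and Dusp16 (6.04) formed a run of neighbours with overlapping ranges. Dusp6 (2.98), Dusp14 (1.87), Dusp2 (0.518) and Dusp10 (0.410) were lowest and did not overlap with one another.

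The summed FPKM of the 10 members was 187, 125 and 111 in the immature libraries and 157, 158, 172 and 153 in the mature ones, so the mature sums lay within the immature range. The make-up of the sum differed. Dusp5 held 11.5% to 20.4% of it in immature and 51.5% to 54.7% in mature libraries, and Dusp1 held 32.6% to 58.0% and 18.6% to 29.7%. Dusp6 held 11.3% to 16.5% in immature and 1.45% to 2.25% in mature libraries, and Dusp3 held 12.1% to 19.8% and 4.24% to 5.60%. These shares describe RNA levels and add no test to the values above.

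**Figure D3:**
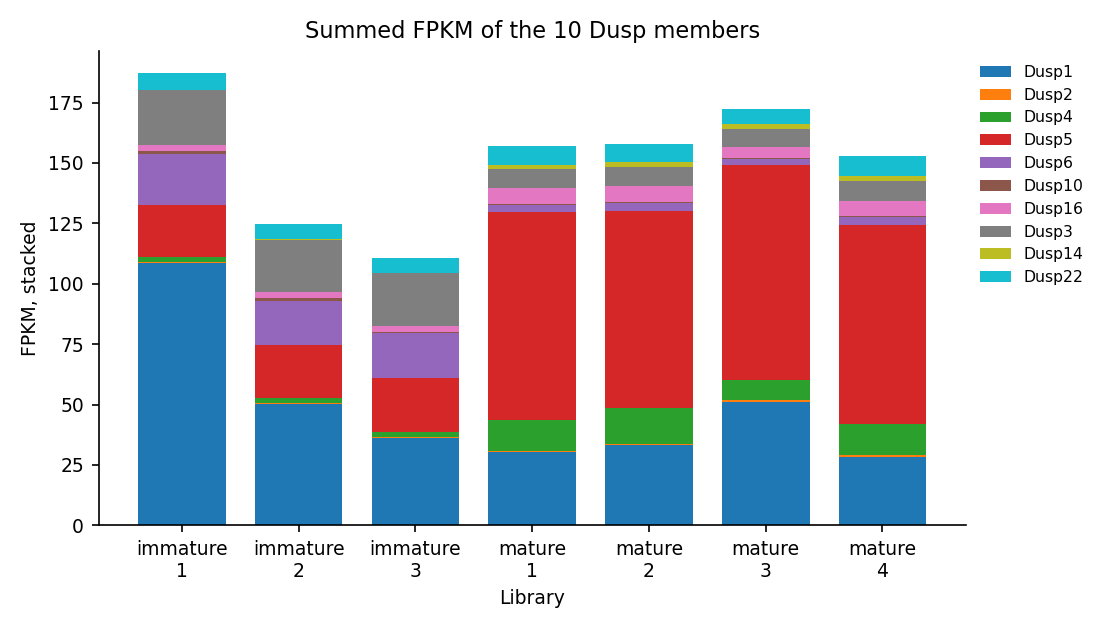
FPKM of the 10 Dusp members stacked for each library, with immature replicates 1 to 3 and mature replicates 1 to 4 along the axis. Dusp1 is the largest segment in the immature libraries and Dusp5 in the mature ones, while the total height runs from 111 to 187 in the former and from 153 to 172 in the latter.

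Mature replicate 1 is also given alone, as 1 library without a measure of error. Its summed heart markers, at 27.2 CPM, still lay above the 5.08 to 6.29 CPM of the immature libraries. The part of heart muscle RNA in the members' values was not tested. In mature replicate 1, which had the lowest heart marker level of the mature libraries, the log2 ratio to the immature mean was 2.30 for Dusp14, 2.46 for Dusp4, 1.83 for Dusp5 and 1.36 for Dusp16. The ratio in that library was -2.87 for Dusp6, -1.59 for Dusp3 and -1.44 for Dusp10. In mature replicate 3, set against the other mature libraries on the log2 scale, Dusp1 was higher by 0.87, and Dusp4 and Dusp16 differed by -0.54 and -0.30. Without mature replicates 1 and 3 together, all 7 members still passed the criteria, and Dusp1 passed as well with a log2 fold change of -1.19 (adjusted p = 0.0291).

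Across the 7 libraries, the genes whose log2 CPM followed Dusp6 most closely, among those with a mean FPKM of at least 10, were Alcam, Tnfrsf21 and Cd164, with Pearson r of 0.9997, 0.9997 and 0.9994. Those closest to Dusp14 were mt-Tp (0.997), Pdcd1lg2 (0.994) and Csnk1d (0.994). The libraries fall into the same sorted groups for each gene, so such values describe a shared difference between the groups and are given without a test.

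Of the typical phosphatases outside the 10 members, Dusp7, a cytoplasmic ERK phosphatase like Dusp6, had 14.7, 16.7 and 16.1 CPM in the immature and 4.43, 4.70, 5.31 and 4.97 CPM in the mature libraries. Its log2 fold change was -1.70 ± 0.12 (SE; adjusted p = 7.64e-06), the same direction as Dusp6. Dusp9, also cytoplasmic, had an adjusted p of 0.0282 at a log2 fold change of -0.84 and did not reach the fold criterion. Dusp8, which acts on JNK and p38, had 0.0681, 0.126 and 0.232 CPM in the immature and 0, 0.695, 0.511 and 0.544 CPM in the mature libraries (log2 fold change 1.60, adjusted p = 0.278). Dusp8 rests on 0 to 46 counts per library. Mature replicate 1, where Dusp8 had no count, was also the mature library with the lowest heart marker level. A link of Dusp8 to these markers was not tested. Without mature replicate 1, Dusp8 had a log2 fold change of 2.02 (adjusted p = 0.0216 in edgeR's test). With any other single library left out, the adjusted p of that test was 0.277 to 0.502. Of the 10 tested genes on the list of other atypical phosphatases, 0 passed the criteria in edgeR's test, against 23.1% of all tested genes. Of these 10, 5 had an unadjusted and 3 an adjusted p under 0.05. DESeq2, run without the filter, called 2 of 12, Dusp26 and Dusp27, both higher, and limma on log2(FPKM + 1) called 0 of 6. Dusp27 had no count in mature replicate 1 and 0.448 to 0.665 CPM in the other mature libraries, and a link to the heart markers was not tested.

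The pathway lists around the phosphatases held 107 tested genes, of which 10 rose and 20 fell, 28.0% against 23.1% of all genes, with a median log2 fold change of -0.087. Among the MAP kinases themselves, 1 of 12 rose and 2 fell, 25.0% of the list and so near the 23.1% of all genes. Mapk13, the delta isoform of p38, had 7.08 to 8.72 CPM in immature and 26.2 to 41.2 CPM in mature libraries (log2 fold change 1.96, adjusted p = 3.30e-05). Mapk14, the alpha isoform, had 170.3 to 183 CPM in immature and 73.1 to 91.7 CPM in mature libraries (log2 fold change -1.10, adjusted p = 1.84e-05). With upper-quartile scaling Mapk14 lay just short of the fold criterion, at -0.99. Mapk6, which encodes the atypical kinase ERK3, fell by 1.34 on the log2 scale (adjusted p = 6.26e-05). The genes of ERK1 (Mapk3) and of JNK1 and JNK2 (Mapk8 and Mapk9) were looked at for their role as substrates, after their values had been seen. None of these 3 passed the criteria, and their log2 fold changes ran from -0.21 in Mapk9 to 0.30 in Mapk3.

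Upstream, 1 of 7 MAP2 kinases passed the criteria, 14.3% against 23.1% of all tested genes. It was Map2k6, an activator of p38, with 5.11 to 5.88 CPM in immature and 1.83 to 2.77 CPM in mature libraries (log2 fold change -1.36, adjusted p = 0.000584). Of 22 MAP3 kinases, 4 rose and 3 fell, 31.8% of the list against the same 23.1%. Map3k14, the NF-kB-inducing kinase of the non-canonical pathway, rose from 99.8 to 100.9 CPM in immature to 409.8 to 485 CPM in mature libraries, with a log2 fold change of 2.17 (adjusted p = 4.68e-07). Map3k15 (log2 fold change 1.56) and Map3k1 (1.28), which feeds the JNK branch, also rose, as did Map3k10 (1.08). Map3k5, the stress kinase ASK1, fell by 1.69 on the log2 scale, Map3k6, its relative, by 1.08 and Map3k9 by 2.54.

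Among the other brakes on these pathways, 1 of 8 other MAPK phosphatases passed the criteria in edgeR's test, 12.5% against 23.1% of all tested genes. This was Ptpn7, a tyrosine phosphatase of ERK and p38. It went from 90.8 to 106.7 CPM in immature to 40.7 to 49.0 CPM in mature libraries (log2 fold change -1.19, adjusted p = 1.56e-05). Of 11 inhibitors of the RAS-ERK route, 2 rose and 2 fell, 36.4% of the list against the same 23.1%. Rasa2, a GTPase-activating protein for RAS, had a log2 fold change of 1.41 (adjusted p = 0.000116) and Spred3 one of 1.15 (adjusted p = 0.000475). Spry2, a Sprouty protein and itself a target of ERK signaling, had -1.56 (adjusted p = 0.00214) and Errfi1, an inhibitor of the EGF receptor, had -1.26 (adjusted p = 0.000328).

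The list of 12 genes used as transcriptional readouts of ERK activity had 8 genes lower and 0 higher in edgeR's test, with a median log2 fold change of -1.43. This is 66.7% of the list, against 9.95% of all tested genes lower. The list was chosen with earlier results of these data known, so this share is a description and not a test. ERK activity itself was not measured in these libraries. DESeq2 called the same 8, and limma on log2(FPKM + 1) called 6 of the 9 it tested, all lower. The 8 were Egr1, Fos, Myc, Etv5, Ier3, Ier2, Phlda1 and Ccnd1. The Dusp members and Spry2, several of which are themselves induced by MAPK signaling, were counted apart from this list. Among them, Dusp4 (log2 fold change 2.42) and Dusp5 (1.84) rose, and Dusp6 (-2.79) and Spry2 (-1.56) fell. The absence of higher genes therefore holds for the genes listed and not for every gene that ERK can induce. Egr1, an immediate early transcription factor, had 172, 132 and 141 CPM in the immature and 11.3, 12.2, 15.9 and 15.8 CPM in the mature libraries. Its log2 fold change was -3.43 ± 0.16 (SE; adjusted p = 8.05e-07), and the groups lay far apart.

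Fos, the AP-1 subunit, had 404, 233 and 188 CPM in the immature and 25.8, 28.6, 55.8 and 25.2 CPM in the mature libraries, a log2 fold change of -3.02 ± 0.35 (SE; adjusted p = 0.000156). Ier2, a further immediate early gene, shown because its order of libraries resembles that of Dusp1, had 64.6, 53.0 and 50.0 CPM in the immature and 15.3, 13.8, 29.2 and 16.1 CPM in the mature libraries. In Dusp1, Fos and Ier2 alike, immature replicate 1 was the highest immature and mature replicate 3 the highest mature library. Unlike Dusp1, Fos and Ier2 did not overlap between the groups. Myc fell by 2.37 on the log2 scale (adjusted p = 4.02e-06). Macrophage markers fell in the same comparison, and their part in these values was not tested.

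**Figure D4:**
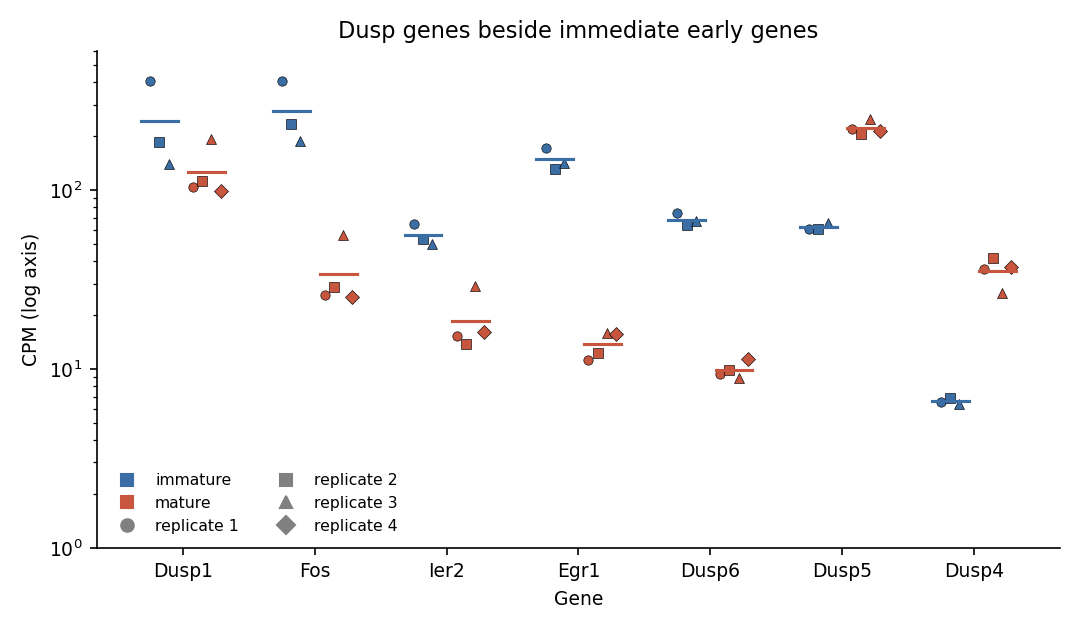
CPM (log axis) of Dusp1, Dusp6, Dusp5 and Dusp4 beside the ERK readout genes Fos, Ier2 and Egr1 in each library, with immature libraries in blue, mature ones in red, marker shape for the replicate and bars for group means. Immature replicate 1 and mature replicate 3 are the highest of their groups in Dusp1, Fos and Ier2, of which Ier2 was chosen for that order. Dusp6, Fos, Ier2 and Egr1 are lower in mature cells, and Dusp5 and Dusp4 are higher.

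Downstream, 1 of 11 kinases activated by MAPKs passed the criteria, 9.09% against 23.1% of all tested genes. This was Rps6ka5 (MSK1), with 13.7 to 16.6 CPM in immature and 28.3 to 41.8 CPM in mature libraries (log2 fold change 1.23, adjusted p = 0.000203). Among 11 tested scaffolds and adaptors, 2 rose and 2 fell, 36.4% of the list against the same 23.1%. Mapk8ip3, a scaffold of the JNK branch, had a log2 fold change of 1.06 and Mapk1ip1 one of 1.02. Ksr2, a scaffold that brings RAF, MEK and ERK together, fell from 17.5 to 21.4 CPM in immature to 1.87 to 3.14 CPM in mature libraries, by 3.00 on the log2 scale. Lamtor3, a scaffold of MEK1 and ERK1 on late endosomes, fell by 1.09. Mapk8ip3 and Mapk1ip1 were short of the fold criterion without immature replicate 3, at 0.99 and 0.92, as was Mapk1ip1 at 0.997 without mature replicate 3. Lamtor3 and Map3k6 were short of it with upper-quartile scaling, at -0.98 and -0.97. On the log2(FPKM + 1) scale of limma, Map2k6, Map3k5, Map3k6, Mapk14, Ptpn7, Rasa2, Spred3, Spry2, Errfi1, Rps6ka5, Ksr2, Mapk1ip1 and Lamtor3 kept their direction at absolute log2 fold changes below 1.

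**Figure D5:**
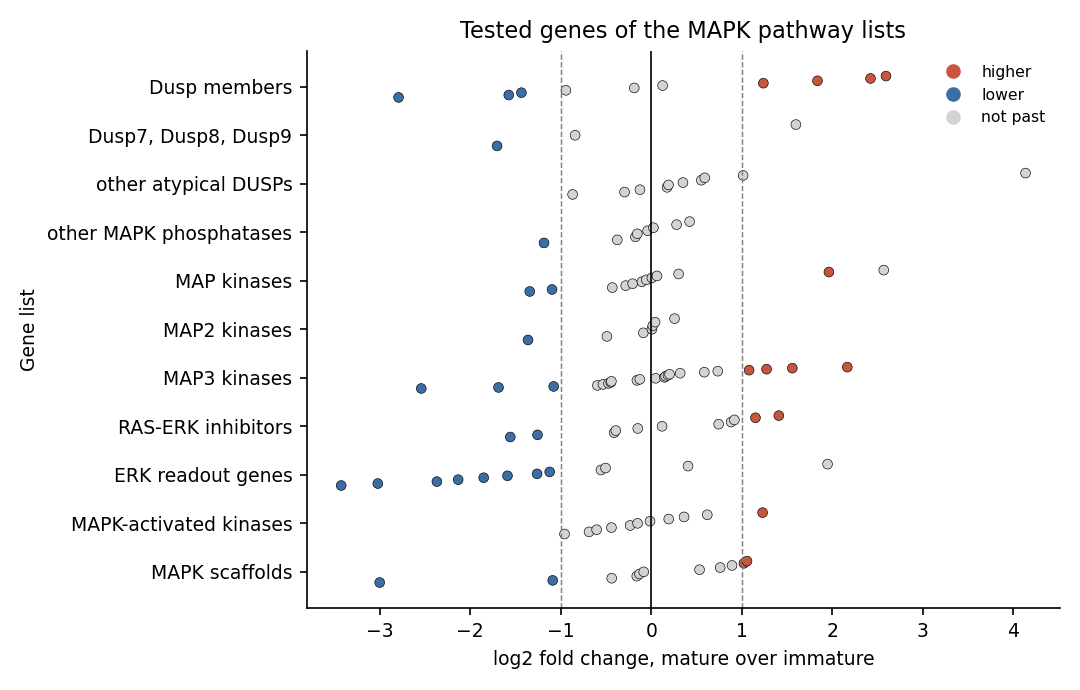
Log2 fold change of mature over immature BMDCs for every tested gene of the Dusp members and of 10 lists of MAPK pathway genes, with 1 point per gene, genes past the criteria in red (higher) or blue (lower) and dashed lines at the fold criterion of 1. The ERK readout genes hold 8 lower and 0 higher genes, whereas the Dusp members and the MAP3 kinases hold genes on both sides. The ERK readout list leaves out the Dusp members and Spry2. Over all tested genes, 9.95% are lower and 13.2% higher past the criteria. The lists were chosen with earlier results of these data known.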

How the data were processed

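RNA of flow-sorted immature (3 libraries) and mature (4 libraries) BMDCs was analysed, with groups and replicate numbers from the sample labels and culture details from the study's text. Poly(A) RNA was sequenced as paired reads from dUTP-marked libraries. The table deposited by the authors holds raw counts for each gene in each library and FPKM values, which scale fragments by gene length and library total. The submitters' processing notes list cutadapt 1.9, HISAT2 2.2.1, StringTie 2.1.6, DESeq2, edgeR and build mm9. The coordinates in the table are however those of GRCm38, as 90.39% of the 28588 gene IDs shared with GENCODE M21 had the same start and end. The counting program and its strand setting are not given in the sources used here. Counts pile up at multiples of 4 (29.4% to 30.8% of nonzero counts up to 40), and the origin of this was not tested.

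Counts were tested in R 4.3.3 with edgeR 4.0.16 (filterByExpr, TMM, quasi-likelihood test), with standard errors derived from its F statistic. The study's methods name the criteria and no test. Alternatives were limma 3.58.1 on FPKM values with pseudocounts of 1 and 0.1, DESeq2 1.42.0, other size factors and filters, each library left out, and the replicate number as a block. Counts divided by 4 and rounded were added after seeing the data. The scripts were tested on simulated data. Intervals of CPM are not given, and the depth bears on counting error only.

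The 10 members and all lists were chosen with earlier results of these data known. All members are named. Of each list, up to 3 higher and 3 lower genes past the criteria, with the largest change and a mean FPKM of at least 1 in the higher group, are named, as are Dusp7, Dusp8 and Dusp9. Ier2, Map3k9, Map3k10, Mapk3, Mapk8, Mapk9 and the full list of ERK readout genes were named after their values were seen. The labels do not say that a replicate number marks a shared animal or batch, so samples were not paired. Samples with the same replicate number did not deviate together over all tested genes (r = 0.029, -0.0011 and 0.014). These values cannot show whether such samples came from the same culture. Promoters came from the RefSeq table on GRCm38.p6, and proteins were not used here. Some genes of the lists are not reported here by name.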

Additional observations from a re-analysis of the deposited data

Results flagged for a closer look

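Of 45 sets of 4 mature libraries compared, 3 had 1 library far from the others by Dixon's ratio, which sets its distance from the next library against the whole range, and chance gives about 2.25. In each, mature replicate 3 was the library apart. The ratio was 0.862 for the CPM of Dusp1, 0.889 for Fos and 0.918 for Map3k15. Mature replicate 3 was the highest mature library for Dusp1 and Fos and the lowest for Map3k15, at 31.0 CPM against 49.9 to 51.5 CPM. It also stood apart from the other mature libraries over all genes, and what set it apart was not tested. The comparison was not run in the immature group of 3 libraries.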

How the results depend on the processing

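All 10 members kept their direction under every alternative that tested them, and the same 7 passed the criteria in edgeR's test and under most others. The number of members past the criteria was 6 when genes had to reach an FPKM of 1 in 3 libraries and with limma, where Dusp10 and Dusp2 were not tested, and 8 without immature replicate 3, without mature replicate 3, or without mature replicates 1 and 3 together, where Dusp1 was added. Across all genes, 4037 passed the criteria, against 2665 with that FPKM filter, 1768 with limma on log2(FPKM + 1), 2561 with a pseudocount of 0.1 and 8053 without the fold criterion. Of the pathway genes, 30 passed, against 13 with limma on log2(FPKM + 1) and 56 without the fold criterion. With the replicate block, in which mature replicate 4 had no partner and so added nothing, 3616 genes, 7 members and 31 pathway genes passed, and no member's call changed. Upper-quartile factors moved the median of all genes from 0.055 to 0.16. Depth limits Dusp2, Dusp8, Dusp9, Dusp10 and Dusp14 most, where few counts stand behind each value.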

Other observations

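Markers of other cells that a culture or sort of this kind could hold were counted as well, beside 13.2% of all tested genes higher and 9.95% lower. Of 7 neutrophil markers 3 could be tested, and S100a8 was lower in mature cells, with a summed level of 1.53 to 3.16 CPM in immature and 1.03 to 2.17 CPM in mature libraries. Of 4 tested mast cell and basophil markers 1 rose, Kit, and the list summed to 6.48 to 8.45 CPM in immature and 33.3 to 44.3 CPM in mature libraries. The lymphoid markers stayed at or below 1.55 CPM in sum. Of 5 epithelial markers 1 rose, Epcam, with sums of 69.9 to 77.3 CPM in immature and 59.2 to 69.5 CPM in mature libraries. Both tested erythroid markers, Hba-a1 and Hbb-bs, were higher in mature cells at sums of up to 2.08 CPM. Their part in the Dusp values was not tested.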
